A study of Mus musculus with 16 samples.

Results

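The genes described here encode the machinery that copies chromosomal DNA and the enzymes that supply its building blocks, measured in regulatory T cells (Treg) of the mouse. They are 41 genes out of the 19938 on the arrays. A gene was taken where a probe set carries its symbol and no other symbol, and for Pcna and Tk1, which have 2 such probe sets each, the brighter one was used. All 41 genes were found, on 43 probe sets, and no filter on low values was applied, so all 41 were tested. They fall into 9 roles. Orc1, Orc6, Cdc6 and Cdt1 license origins, and Mcm2 to Mcm7 form the helicase ring. Mcm10, Gins1, Gins2 and Cdc45 act in helicase activation, and Pola1, Pola2, Prim1, Prim2, Pold1 and Pole belong to primase and the polymerases. Pcna and Rfc1 to Rfc5 are the sliding clamp and its loader, and Rpa1, Rpa2, Fen1 and Lig1 bind single strands or finish Okazaki fragments. Rrm1, Rrm2, Tyms, Tk1, Dut, Mthfd1 and Mthfd2 supply nucleotides, Chaf1a and Chaf1b place histones on new DNA, and E2f1 and E2f8 are transcription factors.

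A cell copies its DNA once per division. In G1 the origin recognition complex, with Cdc6 and Cdt1, loads the MCM ring onto origins as an inactive helicase, and at the start of S phase Cdc45 and the GINS complex join it to make the active one. Primase and DNA polymerase alpha then lay down primers, polymerases epsilon and delta extend them with the clamp PCNA, and ribonucleotide reductase and thymidylate synthase keep deoxynucleotides in supply. Most of these genes are transcribed under the control of E2F factors, and their transcripts are low in resting T cells and abundant in dividing ones. Treg are a T cell lineage that restrains other T cells.

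The Treg came from pooled lymph nodes of wild type female C57BL/6 mice aged 8 to 12 weeks and were sorted by surface CD103, an integrin chain encoded by Itgae, and ICOS, a costimulatory receptor. Cells with neither marker are called double-negative and those with both double-positive, and the CD103neg ICOSpos and CD103pos ICOSneg cells are the ICOS and the CD103 single-positive subset. Each was measured fresh, with RNA taken right after the sort, or activated, with RNA taken after 3 days of a suppression assay. In that assay 200000 Treg of 1 subset were mixed with 1000000 Ly5.1 congenic naive CD4 cells, 2000000 irradiated Rag2-/- splenocytes and soluble anti-CD3 at 0.5 ug/ml, and afterwards CD4pos CD25pos cells lacking Ly5.1 were sorted again. No mention is made in the labels of a second sort by CD103 or ICOS, so an activated subset is named by the sort before culture. There were 2 arrays, from independent experiments, in each of the 8 groups, 16 in all, each from 270 ng of total RNA. The values are log2 intensities, and array medians lay between 6.26 and 6.48. An intensity includes background, so a fold against a level near or below those medians understates the difference, and levels of different genes are not compared with each other.

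The labels were checked with markers before the results were read. Foxp3, which defines the Treg lineage, had levels of 11.69 to 12.84 on 15 arrays but 8.53 on activated ICOS single-positive replicate 2, against 12.64 on its partner. That array, shown apart below, also had lower Itgae (6.30 against 10.00) and Icos (11.25 against 12.88), and higher Klrd1, an NK and CD8 T cell receptor chain (10.47 against 5.32). The summed linear intensity of 13 Treg markers was 22620 there and 36800 to 61460 on the other 15 arrays, while that of 6 CD8 and NK markers was 2037 there and 567 to 939.5 elsewhere. On the log2 scale the 41 replication genes differed from its partner by a median of -0.30 (range -0.73 to 0.63), and all genes by a median of 0.02. Of the 41 genes 0 differed over 2-fold, where 3.44% of all genes did. With 41 genes, 0 is near that share and does not set them apart.

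Markers of other cells also moved with some fresh subsets. The summed linear intensity of 9 conventional CD4 effector markers was 3467 and 3581 in fresh ICOS single-positive cells and 1686 to 2186 on the other 6 fresh arrays. In 5 of the 9, namely Il2, Cd40lg, Ifng, Il21 and Il4, both arrays of that subset lay above the other 6 fresh arrays. The widest gap was that of Il21, a cytokine of follicular helper T cells, which read 8.94 and 9.27 there and 4.65 to 5.13 elsewhere. Csf2 lay below the other fresh arrays (5.02 and 4.93 against 5.03 to 5.30), and Il3, Tnf and Lta overlapped with them. The sum of the 13 Treg markers in those cells, 39890 and 42860, lay within the range of fresh double-negative cells, 36800 to 45690. In fresh CD103 single-positive cells the CD8 and NK markers summed to 928.9 and 939.5, against 567 to 783.8 on the other fresh arrays, and 1 of the 6, Cd8a, lay above the others (7.78 and 8.05 against 6.10 to 6.56). The sum of 8 B cell markers was higher in both CD103-positive subsets, 1200 to 1486 in CD103 single-positive and 1403 to 1535 in double-positive cells, against 682 to 858.7 in the CD103-negative ones. Of these 8 genes Cd79b stood above the other fresh arrays in CD103 single-positive cells (9.91 and 9.86) and the kinase gene Blk in double-positive cells (8.66 and 8.43 against 5.92 to 6.87), and the other 6 did so in no subset. In double-positive cells the effector markers summed to 1766 and 2186. The sum of 14 myeloid and dendritic markers there, 1785 and 2113, overlapped that of CD103 single-positive cells, 928.3 to 2067, and 2 of the 14, Lyz1 and Lyz2, lay above the other fresh arrays. Activated double-negative replicate 2 had Klrd1 at 8.33, Ifng at 10.16 and Il21 at 9.60, against 5.19, 6.83 and 6.21 on its partner. The part of these cells in the differences below was not tested. In such bulk samples fewer cells of a type and less RNA per cell cannot be told apart.

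The promoters of several of these genes hold the letters that E2F factors are known to bind, and 7 are shown to let a reader compare them with the measured levels. Of the 41 genes 35 had an entry, 250 bases before to 50 after the start, in the RefSeq promoter table of GRCm38.p6. Mcm4, Pole, Gins1, Gins2, Rfc2 and Prim2 had none. The words searched on both strands were TTTCCCGC, TTTCGCGC, TTTGCCGC and TTTGGCGC, called E2F words here, and the CCAAT box, which can share its first letter with the last of an E2F word. Orc1, Mcm3, Mcm5, Mcm6 and Pola1 are printed as examples of genes that hold a word and passed the ICOS test in fresh cells. Cdc6, Lig1 and Mcm7 also did both and are not printed. Rrm2 and E2f8 are printed because they differed most by ICOS and hold none in this window. Capitals mark E2F words.
Orc1 (chr4:108579204-108579503, plus strand): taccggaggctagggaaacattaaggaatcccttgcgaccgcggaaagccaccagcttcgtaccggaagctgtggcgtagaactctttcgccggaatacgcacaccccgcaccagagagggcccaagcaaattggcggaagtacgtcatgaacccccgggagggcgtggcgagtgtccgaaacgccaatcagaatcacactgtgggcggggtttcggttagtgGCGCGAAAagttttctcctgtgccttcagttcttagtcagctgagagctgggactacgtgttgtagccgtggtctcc
Mcm3 (chr1:20820263-20820562, minus strand): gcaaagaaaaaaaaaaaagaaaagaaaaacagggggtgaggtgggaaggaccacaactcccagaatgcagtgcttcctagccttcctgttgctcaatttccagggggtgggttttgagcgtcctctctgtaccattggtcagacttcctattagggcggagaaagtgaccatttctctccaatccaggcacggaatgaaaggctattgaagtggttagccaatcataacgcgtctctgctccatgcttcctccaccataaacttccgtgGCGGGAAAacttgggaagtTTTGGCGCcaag
Mcm5 (chr8:75109259-75109558, plus strand): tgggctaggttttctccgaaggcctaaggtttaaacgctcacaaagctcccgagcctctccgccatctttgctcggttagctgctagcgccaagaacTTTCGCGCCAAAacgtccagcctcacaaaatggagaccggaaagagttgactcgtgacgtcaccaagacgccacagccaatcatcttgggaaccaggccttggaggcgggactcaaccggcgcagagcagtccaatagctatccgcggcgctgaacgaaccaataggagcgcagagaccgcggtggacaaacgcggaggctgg
Mcm6 (chr1:128359656-128359955, minus strand): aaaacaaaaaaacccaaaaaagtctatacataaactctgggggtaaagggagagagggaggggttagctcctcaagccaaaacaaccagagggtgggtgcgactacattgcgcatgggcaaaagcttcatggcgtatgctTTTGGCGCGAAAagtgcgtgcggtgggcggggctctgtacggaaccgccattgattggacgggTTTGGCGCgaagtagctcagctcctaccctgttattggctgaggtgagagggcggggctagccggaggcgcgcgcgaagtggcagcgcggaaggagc
Pola1 (chrX:93632106-93632405, minus strand): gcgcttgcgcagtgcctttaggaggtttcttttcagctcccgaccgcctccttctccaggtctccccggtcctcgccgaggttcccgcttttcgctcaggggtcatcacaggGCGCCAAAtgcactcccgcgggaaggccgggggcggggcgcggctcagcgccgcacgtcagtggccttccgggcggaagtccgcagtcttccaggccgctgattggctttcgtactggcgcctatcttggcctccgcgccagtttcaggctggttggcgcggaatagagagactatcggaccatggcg
Rrm2 (chr12:24708004-24708303, plus strand): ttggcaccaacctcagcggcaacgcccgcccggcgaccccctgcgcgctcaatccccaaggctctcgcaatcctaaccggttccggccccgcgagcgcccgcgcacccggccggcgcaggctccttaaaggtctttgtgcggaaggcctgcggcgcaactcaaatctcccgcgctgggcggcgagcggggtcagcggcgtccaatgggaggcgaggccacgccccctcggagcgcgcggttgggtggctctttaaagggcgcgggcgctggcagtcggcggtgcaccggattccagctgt
E2f8 (chr7:48881547-48881846, minus strand): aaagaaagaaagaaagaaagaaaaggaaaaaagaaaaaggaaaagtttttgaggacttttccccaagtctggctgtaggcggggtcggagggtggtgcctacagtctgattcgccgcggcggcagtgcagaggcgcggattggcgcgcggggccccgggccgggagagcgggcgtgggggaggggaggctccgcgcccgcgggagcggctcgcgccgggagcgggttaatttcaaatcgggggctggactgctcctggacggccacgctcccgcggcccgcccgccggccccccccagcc

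An E2F word stood in the window of 11 of these 35 genes (31.4%), and in 3.48% of the 15614 genes on the arrays with an entry. A gene counted where any of its entries held a word. Mcm7, Fen1 and Lig1 have several entries, and in Mcm7 and Lig1 not every entry held one. The 11 are Cdc6, Cdt1, Lig1, Mcm3, Mcm5, Mcm6, Mcm7, Orc1, Pola1, Pold1 and Rfc3. These promoters hold 17 words, 10 of them starting within 100 bases of the start. Counted from the start, Mcm6 has words at bases -110, -106 and -47, the first pair overlapping in 1 run of capitals, and Mcm5 has an overlapping pair at -153 and -149. In Mcm3 both words lie after the start, at bases 20 and 39. A CCAAT box stood in 62.9% of the 35 genes and in 41.7% of the 15614. The median ICOS difference in fresh cells, described below, was 0.99 over the 11 genes with a word and 0.81 over the 24 without one, and the ranges, 0.33 to 1.34 and 0.08 to 3.01, overlapped. A match is a description of letters and shows no binding.

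In fresh cells the replication genes were higher in the ICOS-positive than in the ICOS-negative subsets. Of 41 genes 30 passed the test (limma, Benjamini-Hochberg adjusted p below 0.05 over all genes) as higher and 0 as lower, where 4.1% of all genes passed as higher. The log2 difference was above 0 in all 41 (median 0.82, range 0.08 to 3.01), and its median over all genes was -0.05. All 4 fresh ICOS-positive arrays lay above all 4 fresh ICOS-negative arrays in 29 of 41 genes, against 5.78% of all genes. Rrm2, the limiting subunit of ribonucleotide reductase, and E2f8, an atypical E2F that represses E2F targets, differed most, 8.06-fold and 7.11-fold. The count was 31 without the array that stands apart. Of the 30, 23 passed in all 16 fits that leave out 1 array, and Gins1, Orc6, Pcna, Prim2, Rfc2, Rfc5 and Tk1 in 10 to 15 of them. The p-values here and below measure the spread between 2 replicates, pooled over the 8 groups.

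**Figure D1:**
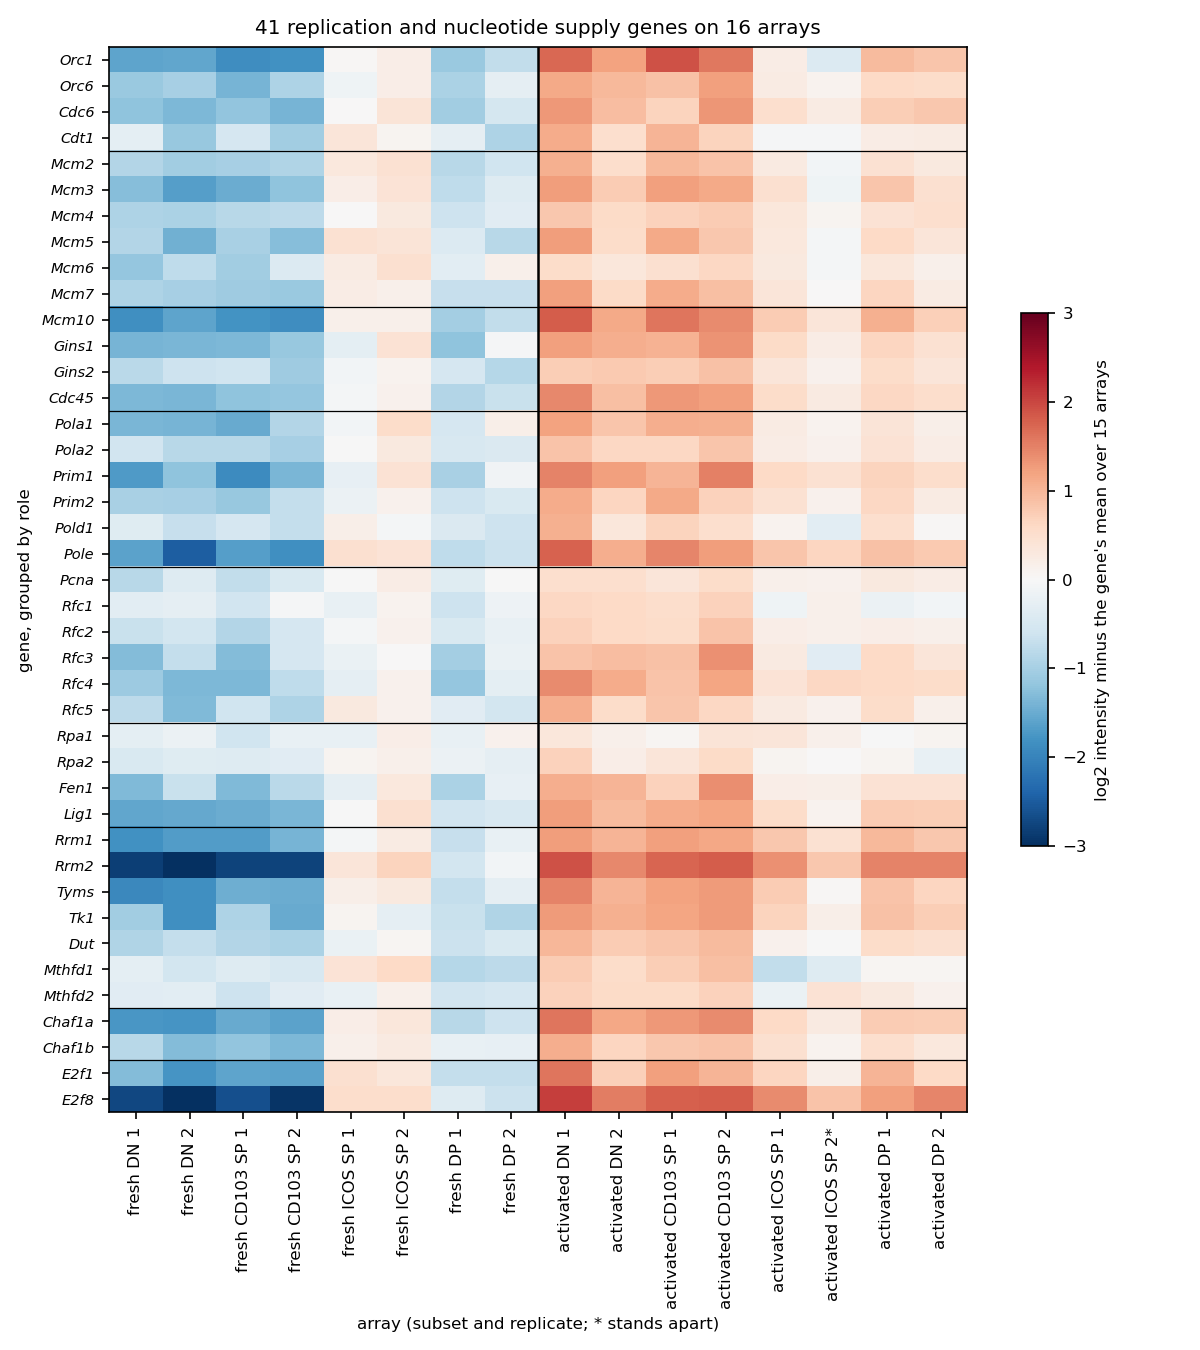
Heat map of the 41 genes (rows, grouped by role and separated by lines) on the 16 arrays (columns; DN double-negative, SP single-positive, DP double-positive). Colour is the log2 intensity minus the gene's mean over the 15 arrays other than the one marked with an asterisk, and both fresh ICOS single-positive columns are paler than the blue ICOS-negative fresh columns, with median values of 0.01 and 0.24 against -1.20 to -1.03.

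The 2 ICOS-positive subsets were not at the same level. Fresh ICOS single-positive cells had the highest mean of the 4 fresh subsets in 41 of 41 genes, and it is on these arrays that the conventional CD4 effector markers were also highest among fresh cells. Against double-negative cells 32 genes were higher (median 1.27), where 2.4% of all genes passed as higher. This count fell to 15 without ICOS single-positive replicate 2 and to 18 without double-negative replicate 2. Fresh double-positive cells lay between. Against CD103 single-positive cells, 38 of 41 differences were above 0 (median 0.46), and 6 passed, namely Lig1, Rrm1, Rrm2, Chaf1a, Chaf1b and E2f8, where 1.58% of all genes passed as higher. Leaving out 1 array gave 2 to 9 genes, with 2 without CD103 single-positive replicate 1 or without double-positive replicate 2, 3 without CD103 single-positive replicate 2 or without double-positive replicate 1, and 9 when the array that stands apart was left out. Of the 9 conventional CD4 effector markers 0 passed in this comparison. With 9 genes that is near the 1.58% of all genes that passed as higher, so the 0 says little about them. Both double-positive arrays still lay above both CD103 single-positive arrays in Il2 (6.10 and 6.01 against 5.67 and 5.71). The same held for Cd40lg (8.17 and 8.26 against 7.57 and 7.71), Ifng, Il21 (4.86 and 5.13 against 4.72 and 4.72) and Csf2. Lta lay below (8.36 and 7.77 against 8.89 and 8.60), and Il4, Il3 and Tnf overlapped. The part of such cells in this difference was not tested.

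Double-positive cells had lower values than ICOS single-positive cells in all 41 genes (median -0.66), and both double-positive arrays lay below both ICOS single-positive arrays in 33 of 41, against 17.9% of all genes. Mcm2, Mthfd1 and Chaf1a passed the test, where 0.166% of all genes passed as lower. Leaving out 1 array gave 0 (ICOS single-positive replicate 2) to 8 genes (each activated double-negative array). It was 1 without any 1 other fresh array or either activated CD103 single-positive array, and 5 without either activated ICOS single-positive array. Mthfd1 passed in 15 of these 16 fits, and Mcm2 and Chaf1a in 6 each. The count was 6 with quantile normalization applied again and 6 with array weights. It was 12, and 279 over all genes in either direction, with the replicate number as a block. The replicate numbers are not stated to mark the experiment. Between CD103 single-positive and double-negative cells 0 of 41 passed (limma, with 0 at an unadjusted p below 0.05), where 0.0853% of all genes passed in either direction, and the median difference was 0.02. Averaged over ICOS, the CD103 difference was below 0 in all 41 genes (median -0.32), and 1 passed, Mthfd1, where 0.0652% of all genes passed as lower. This call was lost without any 1 of the 8 fresh arrays, and with only the fresh groups fitted 5 genes passed. The interaction of CD103 and ICOS was below 0 in 40 of 41 (median -0.76), with 0 genes past the threshold and 21 at an unadjusted p below 0.05, where 0.0451% of all genes passed. Its count was 1, Mthfd1, without the array that stands apart, 1 without its partner, 1 with array weights, 1 with the mean of a gene's probe sets and 1 with only the fresh groups fitted.

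**Figure D2:**
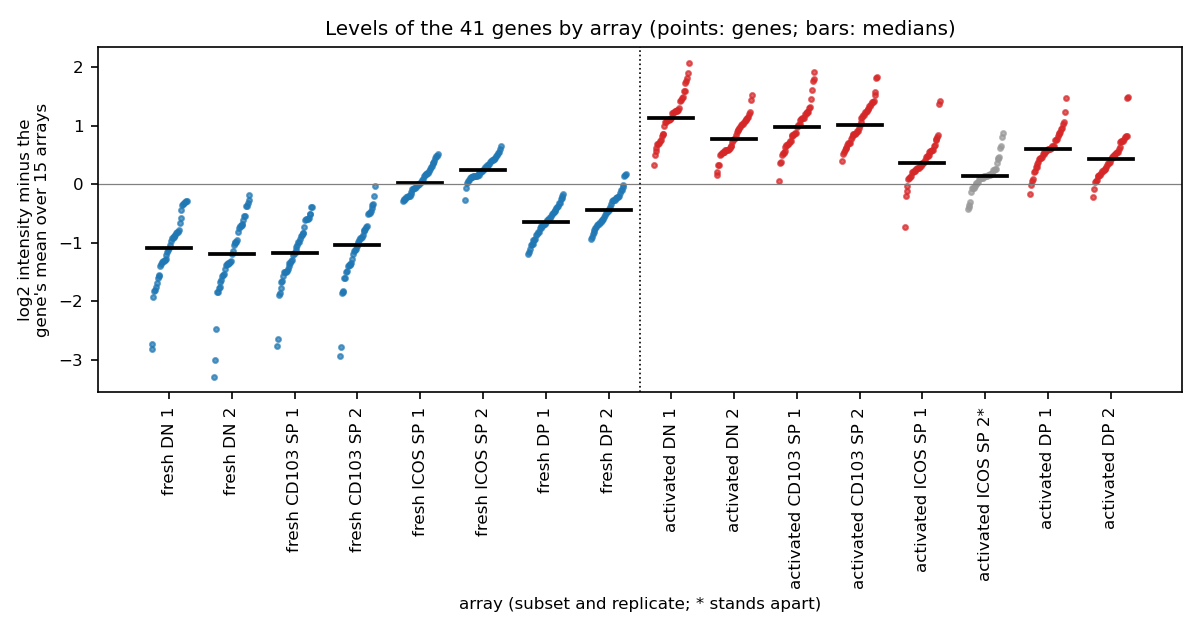
Each point is 1 of the 41 genes, as log2 intensity minus its mean over 15 arrays (vertical axis), on each of the 16 arrays (horizontal axis; DN double-negative, SP single-positive, DP double-positive), with bars for medians. Fresh arrays are blue, activated arrays red and the array that stands apart grey, and the medians run from -1.20 on a fresh double-negative array to 1.13 on an activated double-negative one.

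Activation raised these genes in 3 subsets and moved their median little in the fourth. Over all 4 subsets 41 of 41 genes were higher in activated cells (median 1.27, range 0.35 to 2.94), where 14.4% of all genes passed as higher. In double-negative cells 40 genes rose (median 2.05), where 8.65% of all genes rose, and in CD103 single-positive cells 41 rose (median 2.10), where 10.2% of all genes did. In double-positive cells 31 rose (median 1.10), where 5.36% of all genes did, and 21 of the 31 passed without any 1 array, while Rfc2 passed in 4 and Chaf1b in 6 of the 16 fits. In ICOS single-positive cells 0 rose and 1 fell, Mthfd1, where 1.06% of all genes fell, and the median difference was 0.13. The share of all genes that rose in this subset is not given here, so the 0 is not set against it. The differences of the other 40 genes in that subset ran from -0.29 to 0.62, with 5 of 41 at an unadjusted p below 0.05. Leaving out the array that stands apart gave a median of 0.22. With only the 2 groups compared fitted 0 genes of all 19938 passed, so in that fit the lack of calls was not particular to these genes. Activated ICOS single-positive replicate 1 is the partner of the array that stands apart. On it 27 of 41 genes lay above both fresh ICOS single-positive arrays, 10 lay between them and 4 lay below both. No share of all genes is given for these counts, which rest on 1 activated array, so they do not set the 41 genes apart.

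**Figure D3:**
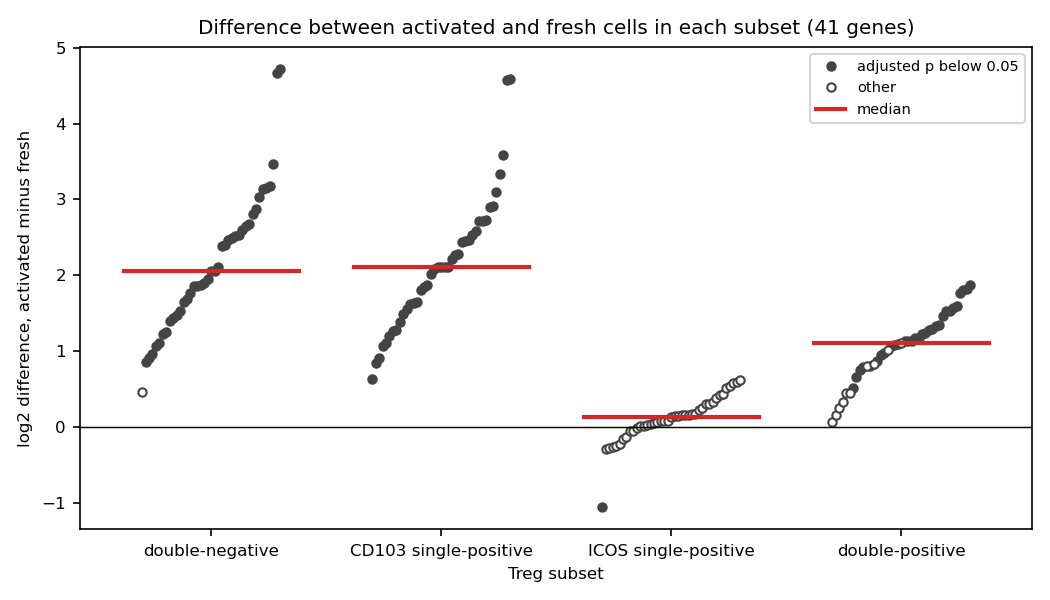
Log2 difference between activated and fresh cells (vertical axis) in each Treg subset (horizontal axis), with 1 point per gene. Filled points had an adjusted p below 0.05 and red bars are medians, which stand at 2.05, 2.10, 0.13 and 1.10 from left to right.

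The difference between these responses was tested itself. For each gene it equals the ICOS difference in activated cells minus that in fresh cells. It therefore restates those differences and does not separate a smaller response from a higher fresh level. The activation difference was smaller in the ICOS-positive than in the ICOS-negative subsets for 38 of 41 genes (median -1.46), where 4.65% of all genes passed as lower. Pold1, Rpa1 and Mthfd2 did not pass. The largest was that of Rrm2 (log2 difference -3.45, SE 0.23, adjusted p = 1.77e-05) and the smallest that of Rpa1 (log2 difference -0.39, SE 0.19, adjusted p = 0.275). The count was 37 without the array that stands apart. Of the 38, 34 passed in all 16 fits that leave out 1 array. Fen1 passed in 15, but Cdt1 in 6, Rfc3 in 5 and Rfc1 in 3.

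After activation the order of the subsets was no longer that of fresh cells. All 41 genes had a lower mean in the activated ICOS-positive subsets (median -0.60), and 19 passed as lower and 0 as higher, where 5% of all genes passed as lower. With the replicate number as a block 34 passed as lower, and 2734 of all genes passed in either direction. The replicate numbers are not stated to mark the experiment. All 4 activated ICOS-negative arrays lay above all 4 ICOS-positive arrays in 31 of 41 genes, against 8.27% of all genes, and in 31 of 41, against 11.9%, when the array that stands apart was not counted. The ICOS single-positive subset, highest in all 41 genes when fresh, was lowest in 38 when activated, and in 30 when the array that stands apart was not counted, with double-positive cells lowest in the other 11. Without the array that stands apart 12 genes passed and the median was -0.53. The count was 7 without activated double-negative replicate 1, 9 and 8 without activated CD103 single-positive replicates 1 and 2, 5 without activated double-positive replicate 2, and 10 with only the activated groups fitted. In all 16 fits that leave out 1 array 5 of the 19 passed, namely Cdc45, Chaf1a, Dut, Mthfd1 and Orc1. The other 14 passed in 9 to 14 of them, except Mcm4 (6) and Chaf1b (4).

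Within the activated cells, no replication gene passed by CD103. Averaged over ICOS, 0 of 41 genes passed (limma, 3 at an unadjusted p below 0.05), where 0.717% of all genes did, and the median was 0.13, or 0.07 without the array that stands apart. Without the partner of that array 1 gene passed as higher. CD103 single-positive and double-negative cells differed by a median of 0.03 with 0 genes past the threshold and 0 at an unadjusted p below 0.05, where 0.00502% of all genes passed. Double-positive cells were lower than CD103 single-positive cells in all 41 genes (median -0.49), with 0 past the threshold and 16 at an unadjusted p below 0.05, where 0.14% of all genes passed. Without either activated ICOS single-positive array 1 gene, Mthfd1 when the array that stands apart was left out, passed as lower.

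**Figure D4:**
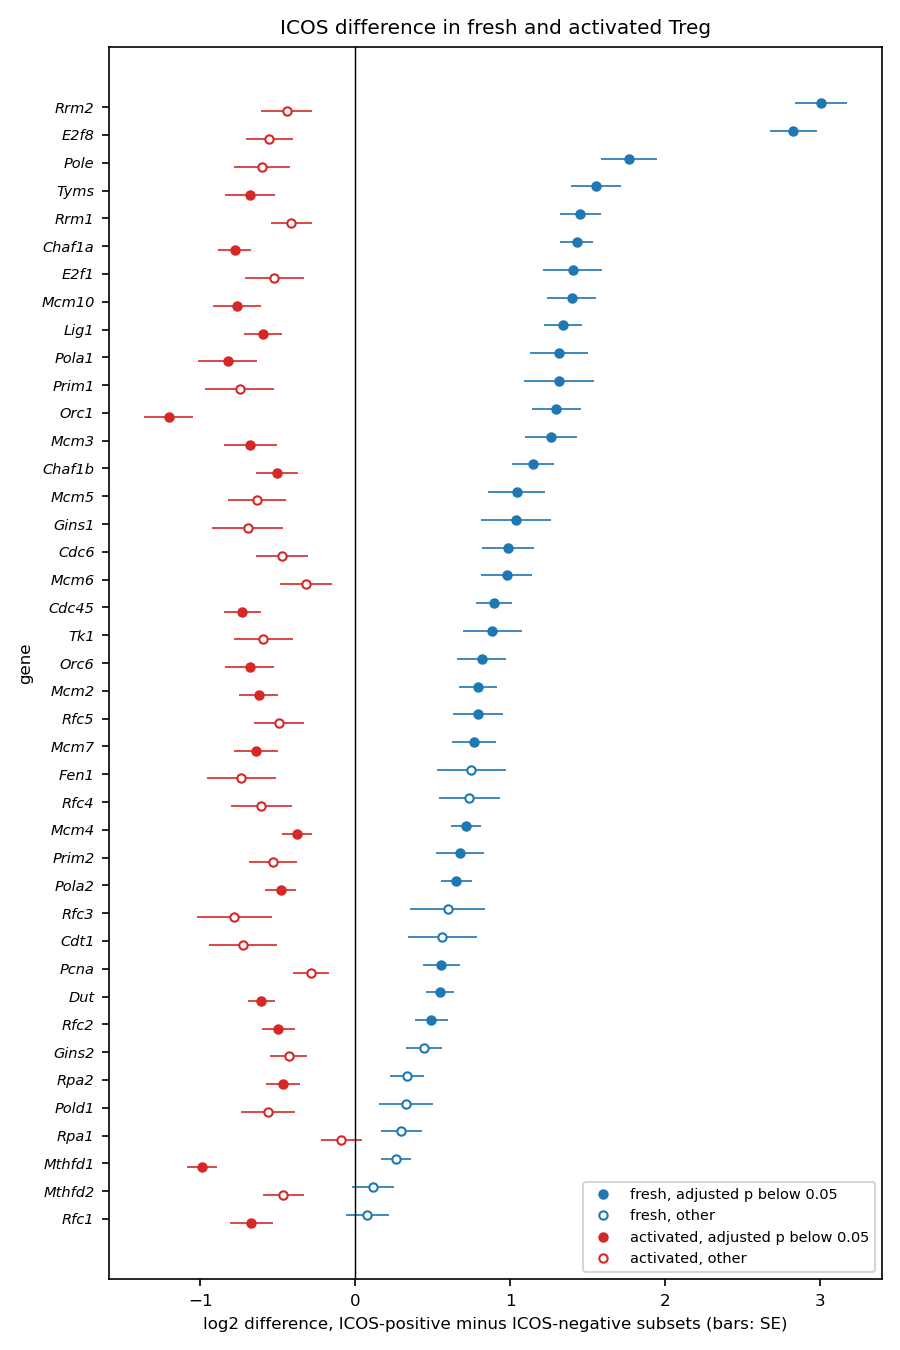
Log2 difference between ICOS-positive and ICOS-negative subsets (horizontal axis) for each of the 41 genes (vertical axis) in fresh (blue) and activated (red) cells, with bars for the SE. Filled points had an adjusted p below 0.05, and fresh values run from 0.08 for Rfc1 to 3.01 for Rrm2 while activated values run from -1.21 for Orc1 to -0.09 for Rpa1.

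The levels of single genes follow by role, each with both replicates of every subset. Origin licensing starts with the origin recognition complex. Orc1, its largest subunit, read 5.17 and 5.20 in double-negative, 4.89 and 4.93 in CD103 single-positive, 6.79 and 6.96 in ICOS single-positive and 5.64 and 6.00 in double-positive cells when fresh. When activated it read 8.47 and 7.95 in double-negative, 8.66 and 8.33 in CD103 single-positive, 6.97 and 6.33 in ICOS single-positive and 7.70 and 7.58 in double-positive cells. The fresh ICOS-positive arrays all lay above the ICOS-negative ones (log2 difference 1.30, SE 0.16, adjusted p = 0.000576), and the activated ones all lay below (log2 difference -1.21, SE 0.16, adjusted p = 0.00372). Activated ICOS single-positive replicate 1, at 6.97, was close to the fresh arrays of that subset, and the array that stands apart, at 6.33, lay below them. Cdt1, which brings the MCM ring to origins, read 9.11 and 8.27 in double-negative, 8.90 and 8.38 in CD103 single-positive, 9.78 and 9.49 in ICOS single-positive and 9.15 and 8.48 in double-positive cells when fresh. When activated its levels were 10.52 and 9.92 in double-negative, 10.43 and 10.08 in CD103 single-positive, 9.38 and 9.38 in ICOS single-positive and 9.63 and 9.67 in double-positive cells. In fresh cells the replicates of Cdt1 overlapped between double-positive and the ICOS-negative subsets (log2 difference 0.56, SE 0.22, adjusted p = 0.19). Orc6 and the loading factor Cdc6 were higher by 0.82 and 0.99, and both passed. After activation 2 of the 4 licensing genes, Orc1 and Orc6, were lower with ICOS.

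Of the 6 helicase ring genes, all 6 rose with ICOS in fresh cells (0.72 to 1.26). Mcm3 read 7.77 and 7.40 in double-negative, 7.55 and 7.85 in CD103 single-positive, 9.24 and 9.45 in ICOS single-positive and 8.29 and 8.66 in double-positive cells when fresh. Its activated levels were 10.30 and 9.80 in double-negative, 10.27 and 10.18 in CD103 single-positive, 9.52 and 8.91 in ICOS single-positive and 9.87 and 9.53 in double-positive cells. Fresh arrays separated by ICOS without overlap (log2 difference 1.26, SE 0.17, adjusted p = 0.00118), while in activated cells double-negative replicate 2 lay below double-positive replicate 1 (log2 difference -0.68, SE 0.17, adjusted p = 0.0387). Mcm4, the ring subunit with the smallest difference, read 9.45 and 9.41 in double-negative, 9.53 and 9.58 in CD103 single-positive, 10.38 and 10.67 in ICOS single-positive and 9.76 and 10.03 in double-positive cells when fresh. After activation Mcm4 stood at 11.19 and 10.95 in double-negative, 11.07 and 11.14 in CD103 single-positive, 10.71 and 10.45 in ICOS single-positive and 10.81 and 10.87 in double-positive cells. Arrays of Mcm4 did not overlap by ICOS in either state, and its fresh difference was 1.65-fold (log2 difference 0.72, SE 0.10, adjusted p = 0.00124). After activation 4 ring genes, Mcm2, Mcm3, Mcm4 and Mcm7, passed as lower with ICOS, of which Mcm3 did so in 9 and Mcm4 in 6 of the 16 fits that leave out 1 array.

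Helicase activation genes gave 3 of 4 that rose with ICOS in fresh cells. Mcm10, which helps the loaded helicase to unwind, read 6.14 and 6.40 in double-negative, 6.19 and 6.11 in CD103 single-positive, 8.12 and 8.12 in ICOS single-positive and 6.95 and 7.24 in double-positive cells when fresh. Activated levels of Mcm10 were 9.78 and 9.11 in double-negative, 9.59 and 9.38 in CD103 single-positive, 8.74 and 8.33 in ICOS single-positive and 9.04 and 8.69 in double-positive cells. It was 2.64-fold higher with ICOS in fresh cells (log2 difference 1.40, SE 0.16, adjusted p = 0.00032) and lower with ICOS after activation (log2 difference -0.77, SE 0.16, adjusted p = 0.0176). Gins2, a GINS subunit, read 7.97 and 8.17 in double-negative, 8.19 and 7.72 in CD103 single-positive, 8.71 and 8.90 in ICOS single-positive and 8.27 and 7.94 in double-positive cells when fresh. In the activated groups it read 9.52 and 9.57 in double-negative, 9.52 and 9.66 in CD103 single-positive, 9.15 and 8.92 in ICOS single-positive and 9.33 and 9.16 in double-positive cells. Fresh double-positive replicate 2 of Gins2 lay below both double-negative arrays, and its difference did not pass (log2 difference 0.45, SE 0.12, adjusted p = 0.0505). Cdc45, the other partner of the active helicase, rose by 0.90 in fresh and fell by 0.73 in activated ICOS-positive cells, both past the threshold.

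Among primase and polymerases 5 of 6 rose with ICOS in fresh cells. Pole, the catalytic subunit of leading strand polymerase epsilon, read 7.43 and 6.56 in double-negative, 7.37 and 7.19 in CD103 single-positive, 9.51 and 9.44 in ICOS single-positive and 8.28 and 8.39 in double-positive cells when fresh. Once activated, Pole read 10.79 and 10.13 in double-negative, 10.49 and 10.28 in CD103 single-positive, 9.87 and 9.68 in ICOS single-positive and 9.92 and 9.81 in double-positive cells. Its fresh double-negative replicates were 0.87 apart, less than the 1.77 between ICOS-positive and ICOS-negative cells (log2 difference 1.77, SE 0.18, adjusted p = 0.000176). Pold1, the catalytic subunit of lagging strand polymerase delta, read 9.09 and 8.76 in double-negative, 8.94 and 8.74 in CD103 single-positive, 9.62 and 9.39 in ICOS single-positive and 9.01 and 8.84 in double-positive cells when fresh. Once activated, Pold1 read 10.52 and 9.78 in double-negative, 10.12 and 9.96 in CD103 single-positive, 9.55 and 9.14 in ICOS single-positive and 9.96 and 9.49 in double-positive cells. Fresh Pold1 overlapped between double-positive and ICOS-negative cells (log2 difference 0.33, SE 0.17, adjusted p = 0.353). Pola1 and Prim1, subunits of the primer-making complex, both rose by 1.32 with ICOS in fresh cells. Pola1 and Pola2 were the 2 genes of this role that passed as lower with ICOS after activation.

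Of the clamp and its loader 3 of 6 genes were higher by ICOS in fresh cells, namely Pcna, Rfc2 and Rfc5. Rfc5, a small loader subunit, read 9.48 and 8.93 in double-negative, 9.66 and 9.34 in CD103 single-positive, 10.56 and 10.39 in ICOS single-positive and 9.93 and 9.70 in double-positive cells when fresh. Activated Rfc5 levels were 11.35 and 10.81 in double-negative, 11.10 and 10.87 in CD103 single-positive, 10.53 and 10.39 in ICOS single-positive and 10.82 and 10.42 in double-positive cells. Every fresh ICOS-positive array of Rfc5 lay above every ICOS-negative one, with 9.70 against 9.66 at the closest (log2 difference 0.79, SE 0.16, adjusted p = 0.0132). Rfc1, the large loader subunit, read 8.39 and 8.45 in double-negative, 8.13 and 8.69 in CD103 single-positive, 8.50 and 8.82 in ICOS single-positive and 8.10 and 8.57 in double-positive cells when fresh. Activated Rfc1 levels were 9.34 and 9.31 in double-negative, 9.25 and 9.41 in CD103 single-positive, 8.59 and 8.87 in ICOS single-positive and 8.54 and 8.63 in double-positive cells. Fresh Rfc1 overlapped between the ICOS-positive and ICOS-negative subsets (log2 difference 0.08, SE 0.14, adjusted p = 0.819), whereas activated ICOS-positive arrays all lay below the ICOS-negative ones (log2 difference -0.67, SE 0.14, adjusted p = 0.0191). The sign of its fresh difference was negative without CD103 single-positive replicate 1 (-0.06), ICOS single-positive replicate 2 or double-positive replicate 2, so Rfc1 had no stable direction in fresh cells.

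Of the genes for single-strand binding and Okazaki fragments, 1 of 4 rose with ICOS in fresh cells. That gene was Lig1, the ligase that seals Okazaki fragments, which read 7.84 and 7.86 in double-negative, 7.91 and 8.02 in CD103 single-positive, 9.39 and 9.88 in ICOS single-positive and 8.82 and 8.92 in double-positive cells when fresh. Activated Lig1 stood at 10.65 and 10.35 in double-negative, 10.52 and 10.58 in CD103 single-positive, 9.94 and 9.50 in ICOS single-positive and 10.15 and 10.13 in double-positive cells. Lig1 did not overlap by ICOS in either state (fresh log2 difference 1.34, SE 0.12, adjusted p = 7.05e-05), and the activated difference passed as lower (log2 difference -0.59, SE 0.12, adjusted p = 0.018). Rpa1, the large subunit of the single-strand binding protein RPA, read 9.41 and 9.51 in double-negative, 9.09 and 9.48 in CD103 single-positive, 9.48 and 9.90 in ICOS single-positive and 9.48 and 9.83 in double-positive cells when fresh. Activated Rpa1 stood at 10.02 and 9.84 in double-negative, 9.75 and 10.08 in CD103 single-positive, 10.05 and 9.84 in ICOS single-positive and 9.68 and 9.77 in double-positive cells. Its subsets overlapped in both states, and its difference by ICOS did not pass in fresh (log2 difference 0.30, SE 0.13, adjusted p = 0.26) or activated cells (log2 difference -0.09, SE 0.13, adjusted p = 0.818). Fen1, the flap nuclease of Okazaki maturation, had a fresh difference of 0.75 that did not pass (SE 0.22), and Rpa2 passed as lower with ICOS after activation (-0.47).

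Nucleotide supply held the largest difference, that of Rrm2, and those of Mthfd1 and Mthfd2, among the smallest, with 5 of 7 genes higher by ICOS in fresh cells. Rrm2 read 6.77 and 6.29 in double-negative, 6.81 and 6.80 in CD103 single-positive, 9.95 and 10.24 in ICOS single-positive and 9.03 and 9.49 in double-positive cells when fresh. After activation its levels were 11.49 and 11.02 in double-negative, 11.34 and 11.41 in CD103 single-positive, 10.96 and 10.38 in ICOS single-positive and 11.06 and 11.08 in double-positive cells. The lowest fresh ICOS-positive array, 9.03, lay above the highest ICOS-negative one, 6.81 (log2 difference 3.01, SE 0.17, adjusted p = 2.35e-06), and the double-positive difference from CD103 single-positive cells was 5.50-fold (log2 difference 2.46, SE 0.23, adjusted p = 0.00033). Rrm1, the partner subunit, and Tyms, thymidylate synthase, rose by 1.45 and 1.56, and the salvage kinase gene Tk1 and the dUTPase gene Dut by 0.89 and 0.55. Mthfd2, a mitochondrial enzyme of the folate cycle, read 9.34 and 9.37 in double-negative, 9.07 and 9.35 in CD103 single-positive, 9.47 and 9.83 in ICOS single-positive and 9.10 and 9.19 in double-positive cells when fresh. After activation Mthfd2 stood at 10.37 and 10.27 in double-negative, 10.25 and 10.38 in CD103 single-positive, 9.49 and 10.12 in ICOS single-positive and 9.97 and 9.82 in double-positive cells. Fresh Mthfd2 did not pass (log2 difference 0.12, SE 0.13, adjusted p = 0.705), nor did its activated difference (log2 difference -0.47, SE 0.13, adjusted p = 0.0628). The latter passed when the array that stands apart, which read 10.12 against 9.49 on its partner, was left out (log2 difference -0.62, SE 0.11, adjusted p = 0.0105).

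Mthfd1, the cytosolic folate enzyme that makes 1-carbon units for purines and thymidylate, moved in opposite directions in different subsets. It read 9.23 and 8.97 in double-negative, 9.13 and 9.03 in CD103 single-positive, 9.92 and 10.12 in ICOS single-positive and 8.67 and 8.73 in double-positive cells when fresh. In activated cells it read 10.27 and 10.07 in double-negative, 10.26 and 10.42 in CD103 single-positive, 8.79 and 9.12 in ICOS single-positive and 9.57 and 9.57 in double-positive cells. Only fresh ICOS single-positive cells stood above the other fresh subsets, and double-positive cells were the lowest, 2.50-fold below them (log2 difference -1.32, SE 0.14, adjusted p = 0.00294). Activation raised Mthfd1 in double-negative (log2 difference 1.07, SE 0.14, adjusted p = 0.000357), CD103 single-positive (log2 difference 1.26, SE 0.14, adjusted p = 9.13e-05) and double-positive cells (log2 difference 0.87, SE 0.14, adjusted p = 0.00211). It lowered Mthfd1 in ICOS single-positive cells (log2 difference -1.06, SE 0.14, adjusted p = 0.00323), where both activated arrays lay below both fresh ones, on replicate 1 (8.79) as on the array that stands apart (9.12).

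Both genes of chromatin assembly factor 1, which puts histones on newly made DNA, were higher with ICOS in fresh cells. After activation both passed as lower with ICOS, Chaf1a in all 16 fits that leave out 1 array and Chaf1b in 4. Chaf1a read 6.35 and 6.32 in double-negative, 6.59 and 6.50 in CD103 single-positive, 8.29 and 8.43 in ICOS single-positive and 7.28 and 7.49 in double-positive cells when fresh. Its levels after activation were 9.70 and 9.25 in double-negative, 9.40 and 9.52 in CD103 single-positive, 8.69 and 8.36 in ICOS single-positive and 8.87 and 8.83 in double-positive cells. The fresh double-positive arrays of Chaf1a lay between the ICOS-negative and ICOS single-positive arrays without overlap (log2 difference 1.43, SE 0.11, adjusted p = 2e-05). Chaf1b read 7.91 and 7.42 in double-negative, 7.55 and 7.38 in CD103 single-positive, 8.88 and 8.99 in ICOS single-positive and 8.50 and 8.49 in double-positive cells when fresh. Its activated arrays read 9.83 and 9.38 in double-negative, 9.55 and 9.59 in CD103 single-positive, 9.21 and 8.83 in ICOS single-positive and 9.24 and 9.06 in double-positive cells. Chaf1b had a similar order, with both double-positive arrays (8.50 and 8.49) above all ICOS-negative ones (log2 difference 1.15, SE 0.13, adjusted p = 0.000444).

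Both E2F genes were higher with ICOS in fresh cells, and neither passed after activation. E2f8 read 5.56 and 5.29 in double-negative, 5.65 and 5.36 in CD103 single-positive, 8.81 and 8.82 in ICOS single-positive and 7.90 and 7.65 in double-positive cells when fresh. Activated E2f8 read 10.37 and 9.82 in double-negative, 10.09 and 10.10 in CD103 single-positive, 9.71 and 9.16 in ICOS single-positive and 9.52 and 9.76 in double-positive cells. Its fresh ICOS-negative levels lay below the array medians, so its 7.11-fold difference (log2 difference 2.83, SE 0.15, adjusted p = 2.15e-06) may be understated. E2f1, an activator of replication genes, read 7.16 and 6.69 in double-negative, 6.88 and 6.84 in CD103 single-positive, 8.93 and 8.80 in ICOS single-positive and 7.73 and 7.75 in double-positive cells when fresh. Activated E2f1 read 10.05 and 9.17 in double-negative, 9.69 and 9.47 in CD103 single-positive, 9.10 and 8.64 in ICOS single-positive and 9.48 and 9.06 in double-positive cells. Replicates of E2f1 were 0.88 apart in activated double-negative cells, and its activated difference did not pass (log2 difference -0.52, SE 0.19, adjusted p = 0.14), nor did that of E2f8 (log2 difference -0.55, SE 0.15, adjusted p = 0.0533).

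**Figure D5:**
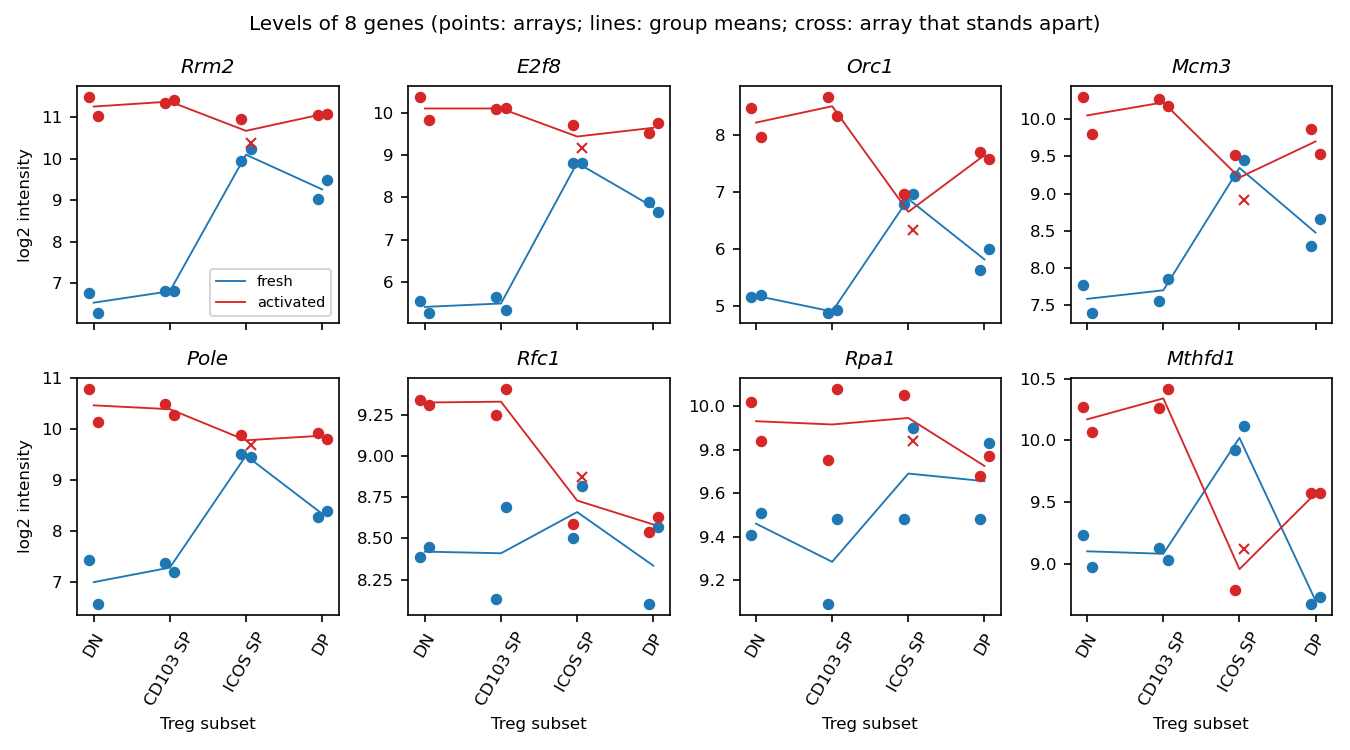
Log2 intensity (vertical axes) of 8 of the genes in the 4 subsets (horizontal axis; DN, SP and DP for double-negative, single-positive and double-positive), fresh in blue and activated in red, with a point for each array and lines through group means. The cross is the array that stands apart, and Rrm2 rises from 6.29 to 6.81 in fresh ICOS-negative cells to 9.03 to 10.24 in fresh ICOS-positive ones, while Mthfd1 is lower in activated than in fresh ICOS single-positive cells.

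Set on a scale from fresh double-negative (0%) to activated double-negative cells (100%), the 41 genes had a median position of 1% in fresh CD103 single-positive, 24.8% in fresh double-positive and 61.4% in fresh ICOS single-positive cells. Activated CD103 single-positive cells stood at 102%, activated double-positive cells at 77% and activated ICOS single-positive replicate 1 at 72.5%. The highest and lowest fresh subset means were a median of 1.33 apart, and the activated ones 0.79, or 0.62 without the array that stands apart. The fresh span was the larger in 34 of 41 genes. When that array was not counted it was the larger in 37, against 45.1% of all genes. Fresh ICOS single-positive cells did not reach the activated ICOS-negative level in most genes. Both activated double-negative arrays lay above both fresh ICOS single-positive arrays in 38 of 41 genes (23.3% of all genes), and both activated CD103 single-positive arrays in 39 (28.6%).

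The genes followed a common profile over the 15 arrays. The Pearson correlation of a gene with the mean of the other 40 had a median of 0.98, above 0.95 in 32 of 41 genes, and these points share arrays and the contrast between fresh and activated cells. The genes least like the rest were Mthfd1 (0.75), Rfc1 (0.79) and Rpa1 (0.80).

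Other genes of the same processes, from lists of 44 further replication genes, 33 measured nucleotide genes, 26 measured genes of cell cycle entry and 19 measured mitosis genes, were read for comparison. Of the 44 replication genes 14 were higher with ICOS in fresh cells, where 4.1% of all genes were, and 0 lower (median 0.32), led by Uhrf1, a maintenance methylation factor (2.21, SE 0.14), the origin firing factor Ticrr (2.11, SE 0.11), the histone chaperone gene Asf1b (2.08, SE 0.17) and Hells (1.85, SE 0.27). After activation 0 of them were higher and 16 lower with ICOS (median -0.47), where 5% of all genes were lower, and Dna2 (-0.92), Mcm8 (-0.87), Uhrf1 (-0.76) and Dscc1 (-0.75) differed most. The activation difference was smaller in ICOS-positive cells for 23 of the 44, where 4.65% of all genes passed as smaller, and larger for 0. By array, all 4 fresh ICOS-positive arrays lay above all 4 ICOS-negative ones in 13 of the 44, against 5.78% of all genes. They lay below in 1, Donson (8.52 to 8.97 against 9.16 to 9.47), which did not pass.

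Of the 33 nucleotide genes outside the 41, 0 passed as higher with ICOS in fresh cells (limma, 7 in either direction at an unadjusted p below 0.05), where 4.1% of all genes passed, and the median was 0.08. The 2 that passed as lower, where 2.43% of all genes did, were the mitochondrial thymidine kinase gene Tk2 (-0.54, SE 0.09) and the purine enzyme gene Impdh1 (-0.43, SE 0.09). Dctpp1, which encodes a dCTP hydrolase, had all 4 fresh ICOS-positive arrays (8.26 to 8.85) above the ICOS-negative ones (7.73 to 8.05) and did not pass (0.57, SE 0.17). In fresh ICOS single-positive cells, the subset highest for the 41, both arrays lay above both double-negative arrays in 21 of the 33, for example in Shmt1 (8.70 and 8.66 against 8.01 and 7.92) and Umps (8.79 and 9.45 against 8.01 and 8.22), and 1 of the 33, the nucleoside transporter gene Slc29a1 (0.99, SE 0.22), passed as higher in that comparison, where 2.4% of all genes did. Whether these genes differ from the 41 was not tested. After activation 16 of 33 were lower with ICOS, where 5% of all genes were, among them Ctps, which encodes CTP synthase (-1.09, SE 0.18), the folate cycle genes Shmt2 (-0.97, SE 0.20) and Shmt1 (-0.97, SE 0.12), and Dctd (-0.93, SE 0.25). The 1 that was higher, where 1.94% of all genes were, was Samhd1, which encodes a dNTP hydrolase (0.75, SE 0.11). It read 11.87, 12.01, 11.33 and 11.63 on the activated ICOS-negative arrays and 12.70, 12.80, 12.18 and 12.14 on the ICOS-positive ones, with no overlap.

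Against the same shares of all genes, 11 of 26 genes of cell cycle entry were higher with ICOS in fresh cells and 0 lower, led by the S phase cyclin genes Ccna2 (3.78, SE 0.12) and Ccne2 (2.42, SE 0.19), the CDK inhibitor gene Cdkn2c (2.40, SE 0.25) and E2f3 (1.14, SE 0.13). After activation 9 were lower with ICOS, such as Ccne2 (-0.78), Ccne1 (-0.76), Cdc25a (-0.72) and E2f3 (-0.71), and 1 was higher, Rbl2, which encodes a retinoblastoma family repressor of E2F targets (0.47, SE 0.11). In fresh cells all 19 mitosis genes were higher with ICOS (median 2.08), against 30 of the 41 replication genes (median 0.82). After activation 3 of 19 mitosis genes were lower with ICOS (median -0.29), against 19 of 41 (median -0.60). Whether these 2 lists differ was not tested.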

How the data were processed

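RNA of 16 mouse Treg samples was measured on 1-colour arrays. The deposited values are log2 intensities for 35556 probe sets, and the submitters' processing notes name RMA and affy, with versions and settings not given in the sources used here. Of the probe sets 21789 had 1 gene symbol, 1621 several and 12146 none, and the brightest per gene left 19938 genes. No further normalization or filter was applied. RefSeq of GRCm38.p6 held 19856 of the gene identifiers and changed 0 symbols. limma 3.58.1 in R 4.3.3 was run as 1 fit over the 16 arrays with a mean per group (8 residual and 2.90 prior degrees of freedom), and 17 comparisons were adjusted by Benjamini-Hochberg over all genes, with a threshold of 0.05. The script was tested on simulated data. A fold is 2 to the power of the log2 difference. Arrays carry no depth, and their number limits the precision. Alternatives were 8 other settings and leaving out each array in turn.

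The 41 genes and the other lists were chosen with earlier results of these data known. Genes given by array have the largest or smallest fresh ICOS difference of a role, a call by CD103 or differing signs. From other lists, at most 4 called genes per direction are named. Marker sums are of linear intensities.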

Additional observations from a re-analysis of the deposited data

Results flagged for a closer look

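The activation difference itself differed between the ICOS-positive and the ICOS-negative subsets, by the test of that difference, for 38 of the 41 genes, and each was smaller in the ICOS-positive subsets. The values below are the difference of the log2 activation differences, ICOS-positive minus ICOS-negative. Among the licensing genes the differences were those of Orc1 (-2.50), Orc6 (-1.50), Cdc6 (-1.46) and Cdt1 (-1.29). In the helicase ring they were Mcm2 (-1.42), Mcm3 (-1.94), Mcm4 (-1.09), Mcm5 (-1.68), Mcm6 (-1.30) and Mcm7 (-1.41). For helicase activation they were Mcm10 (-2.16), Gins1 (-1.73), Gins2 (-0.87) and Cdc45 (-1.62). Of primase and the polymerases, Pola1 (-2.14), Pola2 (-1.14), Prim1 (-2.06), Prim2 (-1.21) and Pole (-2.37) passed. The clamp and its loader gave Pcna (-0.84), Rfc1 (-0.75), Rfc2 (-0.99), Rfc3 (-1.38), Rfc4 (-1.34) and Rfc5 (-1.28). Single-strand binding and Okazaki maturation gave Rpa2 (-0.80), Fen1 (-1.49) and Lig1 (-1.94). In nucleotide supply they were Rrm1 (-1.87), Rrm2 (-3.45), Tyms (-2.24), Tk1 (-1.48), Dut (-1.15) and Mthfd1 (-1.26). The chromatin assembly genes gave Chaf1a (-2.21) and Chaf1b (-1.65). The E2F genes gave E2f1 (-1.93) and E2f8 (-3.38). The fresh and activated groups that enter are the same arrays as in the comparisons above, and each value equals the ICOS difference in activated cells minus that in fresh cells. Without the array that stands apart 37 passed. With each array left out in turn, Fen1 passed in 15, Cdt1 in 6, Rfc3 in 5 and Rfc1 in 3 of the 16 fits, and the other 34 in all 16.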

How the results depend on the processing

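Each of the 17 counts of passing genes was recomputed under 8 other settings and without each array in turn. With the replicate number as a block 2 genes passed by CD103 in fresh cells, 2 in the interaction, 12 for fresh double-positive against CD103 single-positive, 12 against ICOS single-positive, 34 by ICOS after activation and 2 for activated double-positive against CD103 single-positive cells. The numbers are not stated to mark the experiment. Deviations of same-numbered arrays correlated between -0.016 and 0.752 over 28 pairs of groups (median 0.233), 27 of them above 0.1. The correlations ran from 0.499 to 0.752 over the 6 pairs of fresh groups (median 0.656). Over the 6 pairs of activated groups they ran from 0.114 to 0.45 (median 0.248). With only the groups compared in the fit, 5 passed by fresh CD103, 1 in the interaction, 0 for activation of ICOS single-positive cells and 10 by ICOS after activation. Leaving out dim genes gave 10 for fresh double-positive against CD103 single-positive cells. Quantile normalization applied again and array weights each gave 6 for fresh double-positive against ICOS single-positive cells. Array weights and the mean of a gene's probe sets each gave 1 in the interaction. All other counts under these settings stayed within 1.5 times the reported ones.

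Without 1 array the counts were 25 to 31 by ICOS in fresh cells, 0 to 1 by CD103, 0 to 1 in the interaction, 15 to 32 for ICOS single-positive against double-negative, 2 to 9 for double-positive against CD103 single-positive and 0 to 8 against ICOS single-positive. They were 41 for activation, 38 to 40 in double-negative, 22 to 32 in double-positive, 39 to 41 in CD103 single-positive and 1 in ICOS single-positive cells, and 34 to 38 for its difference by ICOS. After activation they were 5 to 25 by ICOS, 0 to 1 by CD103 and 0 to 1 for double-positive against CD103 single-positive. An array left alone in its group was assumed to vary like the others. The fresh ICOS difference of Rfc1 ranged from -0.06 to 0.22 and was negative in 3 of 16 such fits (-0.061, -0.037 and -0.001). With 2 arrays per group and no depth, small differences, such as those of Rfc1 and Rpa1, are not resolved.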
